A study of Homo sapiens with 6 samples.

Results

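The retinoblastoma gene RB1, the G1 cyclins CCND1, CCND3 and CCNE1, their kinases CDK4 and CDK6, and the inhibitors CDKN2A, CDKN2B, CDKN1B and CDKN1C were followed through 6 human prostate cancer cell lines. These 10 genes were listed by name for their place in one pathway, out of 60658 genes in the deposited tables. All 10 were among the 17436 measured genes, those that reached 1 FPKM in at least 1 library. FPKM is the number of sequenced fragments of a gene after correction for its transcript length and for library size.

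The RB protein holds E2F transcription factors in check and so restrains entry into S phase. D-type cyclins with CDK4 or CDK6, and then cyclin E with CDK2, phosphorylate RB and release E2F. INK4 inhibitors (the products of CDKN2A and CDKN2B) bind CDK4 and CDK6, and CIP/KIP inhibitors (p27 from CDKN1B, p57 from CDKN1C) act mainly on cyclin-CDK2 complexes. DU145 is known to carry a truncating RB1 mutation, and tumour cells without working RB are known for high p16, the INK4 product of CDKN2A. CDKN2A also encodes ARF from a separate first exon, and gene-level FPKM do not separate the products.

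The study profiled mRNA of taxane-resistant, castration-resistant prostate cancer lines and of the parental lines. In the DU145 lineage, DU145 is the parental line, DTXR was selected from DU145 with docetaxel, and CTXR was selected from DTXR with cabazitaxel. In the C4-2B lineage, C4-2B is the parental line, TaxR was selected from C4-2B with docetaxel, and CabR was selected from TaxR with cabazitaxel. DTXR and TaxR were kept under 5 nM docetaxel and CTXR and CabR under 5 nM cabazitaxel. Both drugs are taxanes, which stabilise microtubules. All 6 lines grew in RPMI medium with serum and got no treatment before harvest, per the labels. Each line has 1 library, and the lines of a lineage descend from one another, so they are not independent samples.

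Each library summed to between 711766 and 818430 FPKM, and mitochondrially encoded genes took 35.3% to 40.7% of it in the DU145 lineage and 17.9% to 27.9% in the C4-2B lineage. No source used here gives read totals, and the depth behind each value is unknown. Of 10 luminal markers, which include KLK3, 4 reached 1 FPKM in each DU145-lineage library and 10 in each C4-2B-lineage library. Of 10 markers of the DU145 side, all 10 reached 1 FPKM in TaxR, against 2 in C4-2B and 3 in CabR. Their summed level was 100.0 FPKM in TaxR and 68.9 FPKM in C4-2B, beside 2949.8 FPKM in DU145. The median marker put the share of DU145-like transcripts in TaxR at 1.38%, with single markers between -0.0435% and 5.26%. Of 5 fibroblast markers 1 or 2 reached 1 FPKM in each library, with sums of 3.14 to 6.98 FPKM in the DU145 lineage and 6.78 to 13.3 FPKM in the C4-2B lineage. The leukocyte marker sum was 9.07 to 82.4 FPKM in the DU145 lineage and 0.862 to 7.22 FPKM in the C4-2B lineage, and PTPRC, the defining leukocyte marker, was listed at 0 in all 6 libraries. CD68 carried most of that sum, with 82.4 FPKM in DTXR and 25.8 FPKM in CTXR.

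The INK4 genes carried the widest gap between the lineages, and they are neighbours on chromosome 9. The promoters below show the separate ARF and p16 starts of CDKN2A and the start of CDKN2B, each from 250 bases before the start to 50 bases after it (RefSeq, GRCh38.p14, minus strand, written 5′ to 3′). CG dinucleotides, the sites of DNA methylation, are in capitals.
CDKN2A, upstream start (chr9:21995275-21995574): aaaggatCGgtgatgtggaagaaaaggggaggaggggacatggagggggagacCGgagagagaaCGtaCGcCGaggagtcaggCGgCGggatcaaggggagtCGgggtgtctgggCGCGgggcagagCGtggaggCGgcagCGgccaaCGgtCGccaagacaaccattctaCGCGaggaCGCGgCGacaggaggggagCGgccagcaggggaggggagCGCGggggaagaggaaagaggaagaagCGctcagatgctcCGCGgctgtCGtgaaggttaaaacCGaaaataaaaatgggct
CDKN2A, downstream start (chr9:21974808-21975107): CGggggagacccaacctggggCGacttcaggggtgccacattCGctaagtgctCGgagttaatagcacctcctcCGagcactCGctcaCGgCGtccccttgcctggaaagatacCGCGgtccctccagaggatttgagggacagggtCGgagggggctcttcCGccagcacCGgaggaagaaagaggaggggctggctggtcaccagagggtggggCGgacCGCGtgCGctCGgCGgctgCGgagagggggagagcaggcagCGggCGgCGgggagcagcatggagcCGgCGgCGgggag
CDKN2B (chr9:22009256-22009555): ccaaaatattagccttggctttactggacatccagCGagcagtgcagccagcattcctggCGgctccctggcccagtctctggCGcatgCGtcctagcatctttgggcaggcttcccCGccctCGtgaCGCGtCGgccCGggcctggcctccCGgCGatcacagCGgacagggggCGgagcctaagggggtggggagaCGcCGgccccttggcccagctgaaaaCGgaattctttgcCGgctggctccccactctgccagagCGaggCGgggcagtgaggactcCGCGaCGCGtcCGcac
The windows hold 28, 26 and 25 CG dinucleotides in that order, against a median of 14 over 35116 promoters of the same length. Methylation was not measured. The E2F-type motifs TTTCCCGC, TTTCGCGC, TTTGCCGC and TTTGGCGC were searched on both strands. The RefSeq table gave 12 promoters for 8 of the genes, and none for CCND1 and CDKN1C. The RB1 entry (chr13:48476200-48476499) lies inside the gene and is not its first start. None of the 12 windows holds a motif, and 3.31% of all 35116 promoters do.

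CDKN2A (ENSG00000147889; chromosome 9, 21967753 to 21995301, minus strand, GRCh38) was far higher in the DU145 lineage. It had 302 FPKM in DU145, 396 FPKM in DTXR and 519.9 FPKM in CTXR, against 16.2 FPKM in C4-2B, 12.5 FPKM in TaxR and 6.55 FPKM in CabR. The lineages did not overlap, and the lowest DU145-lineage level was 18.6 times the highest C4-2B-lineage level. CDKN2A was the most abundant of the 10 genes in DU145, DTXR and CTXR, and lay sixth, sixth and seventh in C4-2B, TaxR and CabR. The mean log2(FPKM + 1) differed by 5.04 between the DU145 and C4-2B lineages. In bulk RNA, fewer cells that express a gene and less RNA per cell cannot be told apart.

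Along the lineages the sublines lay on opposite sides of their parent for CDKN2A. Its log2 ratio of (FPKM + 1) was 0.39 in DTXR and 0.78 in CTXR over DU145, against -0.35 in TaxR and -1.19 in CabR over C4-2B. A gene is called higher or lower in a pair of lines when this ratio is at least 1 in size, so the CabR value alone was called. The scale understates changes of low genes, and no pair of lines has a replicate check. With the DU145-like share subtracted from TaxR, CDKN2A there was 8.46 FPKM, its ratio over C4-2B was -0.86, and its ratio of CabR over TaxR was -0.33, against -0.84 as deposited. Among the other 9 genes the largest such move was that of CDKN2B in TaxR over C4-2B, at -0.12 against -0.04. The subtraction lowers any gene that is higher in DU145 than in TaxR, so the direction of these moves was fixed by the calculation.

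CDKN2B (ENSG00000147883; chromosome 9, 22002903 to 22009363, minus strand), which encodes p15, showed the same split at a lower level. It had 5.74 FPKM in DU145, 8.94 FPKM in DTXR and 8.29 FPKM in CTXR, against 0.417 FPKM in C4-2B, 0.382 FPKM in TaxR and 0.171 FPKM in CabR. The lineages were 13.8-fold apart at their nearest. No subline differed from its parent by the size rule: the log2 ratio was 0.56 for DTXR and 0.46 for CTXR, and -0.04 for TaxR and -0.28 for CabR.

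The genes around the INK4 locus differed less between the lineages. The mean log2 difference, DU145 lineage minus C4-2B lineage, was 0.44 for MTAP, -0.66 for KLHL9 and -0.29 for FOCAD. The antisense gene CDKN2B-AS1, which overlaps both INK4 genes on the opposite strand, had 0.728 FPKM in DU145, 1.27 FPKM in DTXR and 2.66 FPKM in CTXR, against 0.192 FPKM in C4-2B, 0.411 FPKM in TaxR and 0 in CabR. It was called higher in CTXR over DU145, at a log2 ratio of 1.08. The libraries were stranded, but no source used here says whether counting used strand, so reads of genes on opposite strands may not have been told apart.

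**Figure D1:**
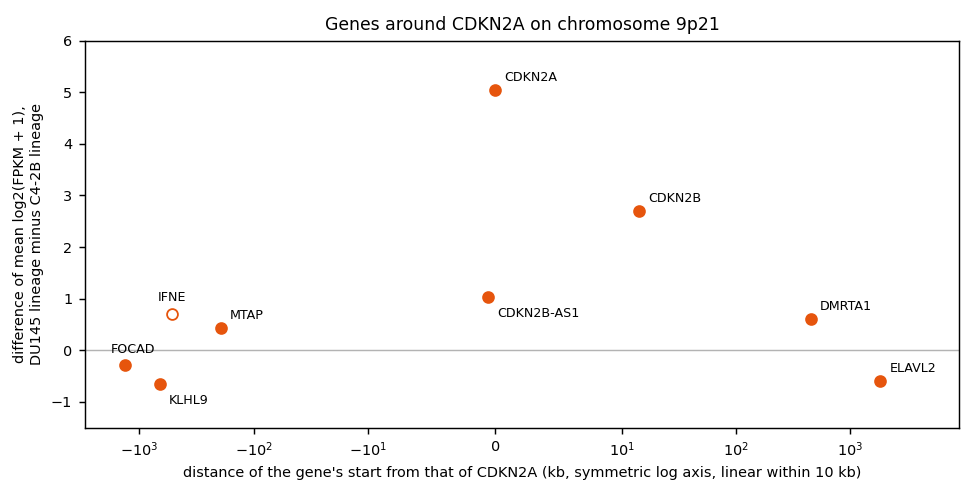
Mean log2(FPKM + 1) of the DU145 lineage minus that of the C4-2B lineage (y axis) against the distance of each gene's start from that of CDKN2A in kb (x axis, symmetric log). Each point is 1 gene over 3 libraries per lineage, and the open point never reached 1 FPKM. CDKN2A at 5.04 and CDKN2B at 2.69 stand above the other genes shown.

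Polycomb genes known to repress the INK4 locus were mixed. Of 9 measured, 2 lay above and 4 below in the DU145 lineage without overlap, beside 27.2% and 28.6% of all measured genes. BMI1 had 31.4 FPKM in DU145, 51.4 FPKM in DTXR and 58.5 FPKM in CTXR, against 20.0 FPKM in C4-2B, 22.9 FPKM in TaxR and 27.8 FPKM in CabR. CBX8 was called lower in DTXR and in CTXR, at 5.86 and 6.38 FPKM, against 14.2 FPKM in DU145.

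RB1 (ENSG00000139687; chromosome 13, 48303726 to 48599436, plus strand) was expressed in every line. It had 8.47 FPKM in DU145, 9.49 FPKM in DTXR and 8.06 FPKM in CTXR, against 14.3 FPKM in C4-2B, 17.5 FPKM in TaxR and 15.4 FPKM in CabR. The DU145 lineage lay below without overlap, with a mean log2 difference of -0.79. No subline was called against its parent, at log2 ratios of 0.15 for DTXR and -0.06 for CTXR over DU145, and 0.27 for TaxR and 0.10 for CabR over C4-2B. FPKM count transcripts and say nothing of the mutant protein.

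The related pocket protein gene RBL2 had 17.6 FPKM in DU145, 15.1 FPKM in DTXR and 17.5 FPKM in CTXR, against 40.5 FPKM in C4-2B, 26.6 FPKM in TaxR and 19.8 FPKM in CabR. RB1 made up 24.8% to 30.5% of the summed FPKM of RB1, RBL1 and RBL2 in the DU145 lineage and 23.4% to 35.5% in the C4-2B lineage. Of 12 pocket protein, E2F and DP genes, 3 lay above and 2 below in the DU145 lineage without overlap, beside 27.2% and 28.6% of all measured genes. The count below was 5 without C4-2B, 4 without CTXR and 1 with libraries rescaled to the same total without mitochondrial genes. Leaving out a library cannot lower such a count. The share over all genes was not counted under these alternatives. TFDP2, an E2F partner, was the one called along a lineage, with 14.2 FPKM in TaxR against 30.6 FPKM in C4-2B.

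CDKN1C (ENSG00000129757; chromosome 11, 2883213 to 2885773, minus strand) was lower in every resistant subline than in its parent. It had 7.67 FPKM in DU145, 1.42 FPKM in DTXR and 2.66 FPKM in CTXR, and 31.6 FPKM in C4-2B, 10.2 FPKM in TaxR and 4.37 FPKM in CabR. Within each lineage the parent was highest, and the lineages overlapped. The log2 ratios were -1.84 in DTXR and -1.24 in CTXR over DU145, and -1.55 in TaxR and -2.60 in CabR over C4-2B. CDKN1C was 1 of 21 genes, 0.12% of those measured, called lower in all 4 sublines, and 0.0229% were called higher in all 4. Sublines of a lineage share 1 parental library, so these are not 4 independent differences.

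CDKN1B (ENSG00000111276; chromosome 12, 12715058 to 12722371, plus strand) was most abundant in C4-2B. It had 15.9 FPKM in DU145, 12.4 FPKM in DTXR and 27.2 FPKM in CTXR, and 60.2 FPKM in C4-2B, 24.0 FPKM in TaxR and 31.7 FPKM in CabR. CTXR exceeded TaxR, so the lineages overlapped. It was called lower in DU145 over C4-2B, at -1.85, and in TaxR over C4-2B, at -1.29, and higher in CTXR over DTXR, at 1.07. Of 10 genes for the turnover of G1 regulators, 3 lay above and 2 below in the DU145 lineage without overlap, beside 27.2% and 28.6% of all genes. In DU145 over C4-2B, CKS1B, a cofactor in p27 degradation, was called higher, at 213 FPKM in DU145 against 98.9 FPKM in C4-2B. The ubiquitin ligase subunit genes SKP1 and RBX1 were called lower, at log2 ratios of -1.35 and -1.90, and SKP2, which recognises p27, had a ratio of 0.14.

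Other inhibitors in the pathway differed in CTXR. CDKN2C, an INK4 gene, was called higher in CTXR, with 37.9 FPKM against 15.2 FPKM in DU145. CDKN2D, the remaining INK4 gene, had 21.4 FPKM in CTXR against 7.24 FPKM in DU145. These were 2 of 3 other inhibitor genes, beside 7.45% of measured genes called higher in that comparison.

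Among the D-type cyclins, CCND1 led in every line. CCND1 (ENSG00000110092; chromosome 11, 69641087 to 69654474, plus strand) had 116 FPKM in DU145, 113 FPKM in DTXR and 73.3 FPKM in CTXR, and 86.7 FPKM in C4-2B, 138 FPKM in TaxR and 91.8 FPKM in CabR. The lineages overlapped, and no pair of lines was called. The log2 ratios were -0.04 in DTXR and -0.66 in CTXR over DU145, and 0.66 in TaxR and 0.08 in CabR over C4-2B.

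CCND3 (ENSG00000112576; chromosome 6, 41934933 to 42050357, minus strand) separated the lineages. It had 12.7 FPKM in DU145, 9.63 FPKM in DTXR and 7.88 FPKM in CTXR, against 34.4 FPKM in C4-2B, 53.0 FPKM in TaxR and 39.5 FPKM in CabR. The lineages were 2.71-fold apart at their nearest, and no subline was called against its parent. CCND1 made up 90.1% to 91.5% of summed D-type cyclin FPKM in the DU145 lineage and 69.8% to 72.2% in the C4-2B lineage. CCND2 stayed under 1 FPKM in all 6 libraries.

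CCNE1 (ENSG00000105173; chromosome 19, 29811898 to 29824308, plus strand), a cyclin partner of CDK2, had 6.76 FPKM in DU145, 6.81 FPKM in DTXR and 10.1 FPKM in CTXR, and 5.71 FPKM in C4-2B, 10.5 FPKM in TaxR and 9.67 FPKM in CabR. The lineages overlapped and no pair was called. The other E-type cyclin gene, CCNE2, had 5.77 to 7.08 FPKM in the DU145 lineage and 13.3 to 20.9 FPKM in the C4-2B lineage, without overlap. CDC25A, a phosphatase that activates CDK2, was called higher in CabR, at 20.5 FPKM against 7.90 FPKM in C4-2B, and lower in CTXR, at 3.69 FPKM against 8.63 FPKM in DU145.

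CDK4 (ENSG00000135446; chromosome 12, 57747727 to 57756013, minus strand) had 73.0 FPKM in DU145, 123 FPKM in DTXR and 57.1 FPKM in CTXR, and 67.3 FPKM in C4-2B, 79.4 FPKM in TaxR and 84.5 FPKM in CabR. It was called in CTXR over DTXR, at -1.09. Its opposite-strand neighbour TSPAN31, which overlaps it, had 1.80 to 6.56 FPKM in the DU145 lineage and 9.14 to 22.5 FPKM in the C4-2B lineage.

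CDK6 (ENSG00000105810; chromosome 7, 92604921 to 92836594, minus strand) was low throughout and lowest in the cabazitaxel-selected lines. It had 4.67 FPKM in DU145, 6.11 FPKM in DTXR and 1.17 FPKM in CTXR, and 3.60 FPKM in C4-2B, 1.64 FPKM in TaxR and 1.23 FPKM in CabR. It was called lower in CTXR over DU145, at -1.39, in CTXR over DTXR, at -1.71, and in CabR over C4-2B, at -1.04. In DTXR over TaxR CDK6 was called higher, at 1.43. The CabR call was lost with libraries rescaled to the same total without mitochondrial genes, at -0.98, or to the same upper quartile, at -0.99. None of 9 neighbouring protein-coding genes within 500000 bases was called in CTXR over DU145 or in CabR over C4-2B. The shares over all measured genes were 12.9% and 8.87%.

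**Figure D2:**
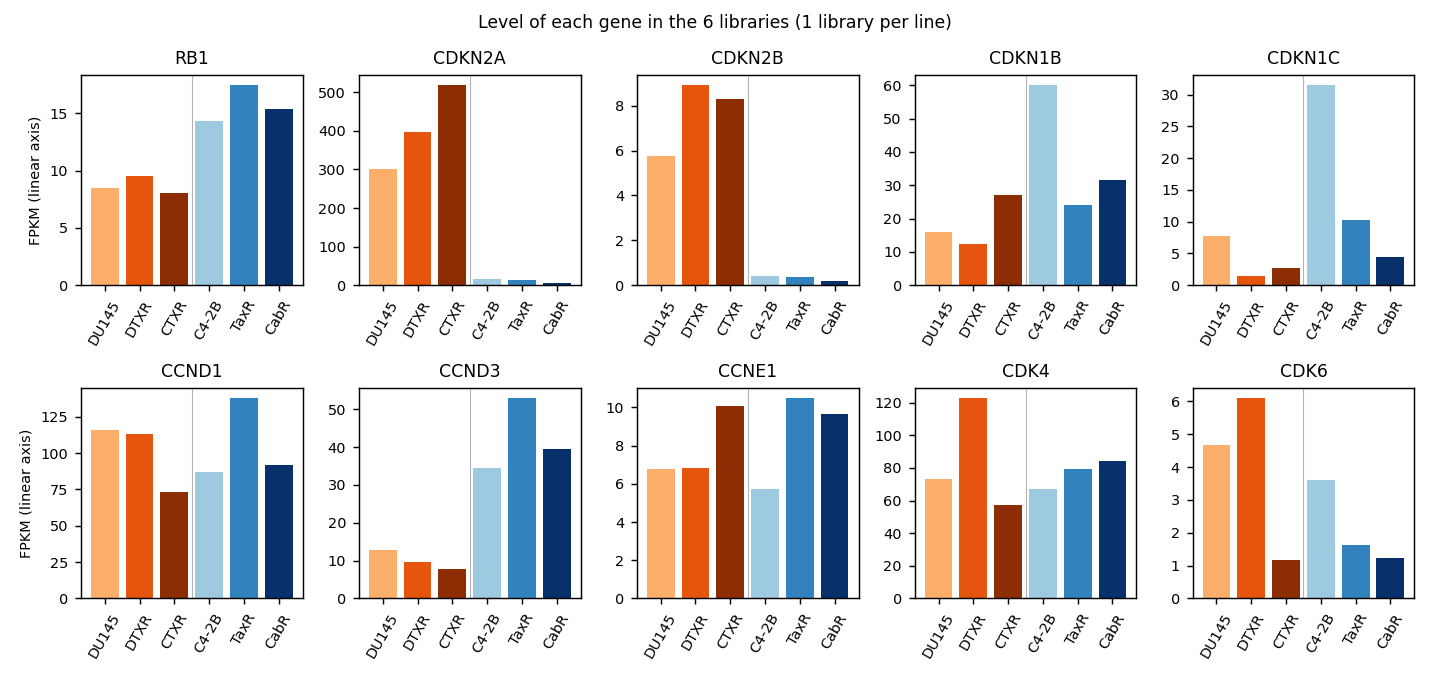
FPKM of each of the 10 genes (y axes, linear, 1 scale per gene) in the 6 lines, with 1 library per line and so no error bars. CDKN2A and CDKN2B are higher, and RB1 and CCND3 lower, in all 3 DU145-lineage libraries.

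The summed level of CDKN2A and CDKN2B exceeded that of their target kinases only in the DU145 lineage among these libraries. The ratio of CDKN2A plus CDKN2B to CDK4 plus CDK6 came to 3.96 for DU145, 3.14 for DTXR and 9.06 for CTXR, against 0.234 for C4-2B, 0.159 for TaxR and 0.0783 for CabR. CDKN2A here includes ARF, and the other INK4 genes CDKN2C and CDKN2D are left out. Those 2 genes had 15.2 and 7.24 FPKM in DU145, 15.4 and 4.14 FPKM in DTXR and 37.9 and 21.4 FPKM in CTXR. In the C4-2B lineage they had 21.9 and 26.5 FPKM in C4-2B, 17.8 and 15.3 FPKM in TaxR and 28.9 and 21.6 FPKM in CabR. The summed CIP/KIP level, with CDKN1A included, was 47.6 FPKM in DU145, 33.1 FPKM in DTXR and 59.6 FPKM in CTXR, against 131 FPKM in C4-2B, 85.1 FPKM in TaxR and 80.0 FPKM in CabR.

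**Figure D3:**
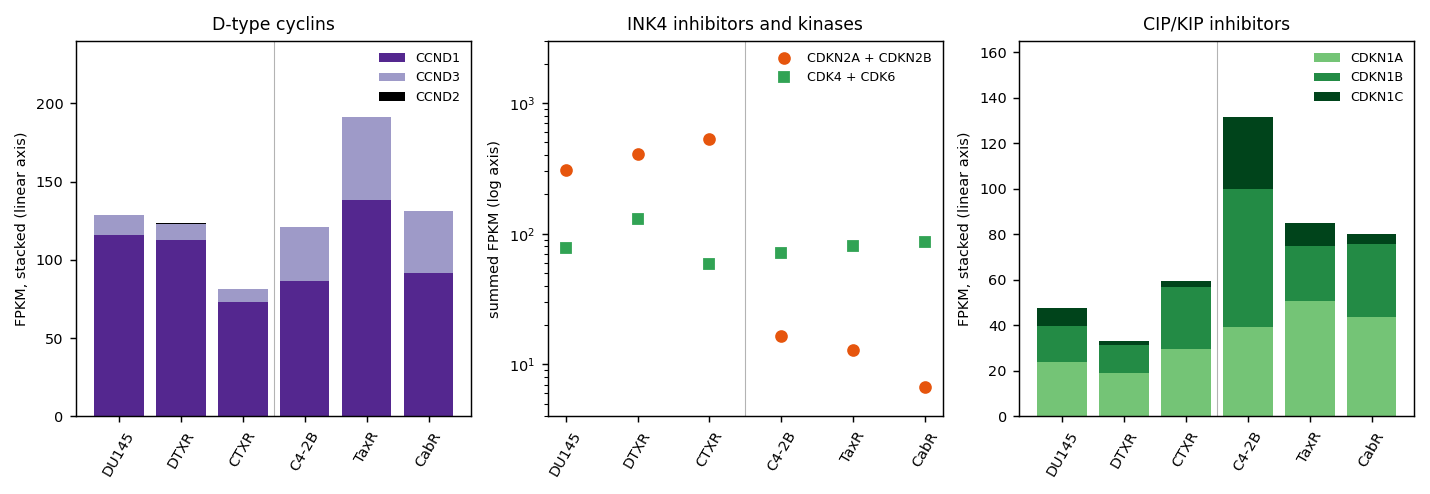
Summed FPKM in each line for D-type cyclins (left, stacked bars), INK4 inhibitors and their kinases (middle, log axis) and CIP/KIP inhibitors (right, stacked bars). The middle panel sums CDKN2A and CDKN2B only, without CDKN2C and CDKN2D. CDKN2A plus CDKN2B sit above CDK4 plus CDK6 in the DU145 lineage and below them in the C4-2B lineage.

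Counted over the 10 genes, no subline had one called higher than its parent. DTXR over DU145 gave 1 gene lower, beside 5.1% of measured genes called lower, 5.37% called higher and 10.5% in either direction. CTXR over DU145 gave 2 genes lower, beside 5.47% lower, 7.45% higher and 12.9% in all. TaxR over C4-2B gave 2 genes lower, beside 5.64% lower, 2.52% higher and 8.16% in all. CabR over C4-2B gave 3 genes lower, beside 6.2% lower, 2.67% higher and 8.87% in all. From docetaxel to cabazitaxel selection, CTXR over DTXR gave 1 gene higher, beside 7.29%, and 2 lower, beside 5.25%, with 12.5% in all. CabR over TaxR gave CDKN1C alone, lower, beside 1.84% lower, 1.75% higher and 3.59% in all.

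Between the lineages, 4 of the 10 genes did not overlap, beside 55.9% of all measured genes, so a split of this kind was no more frequent here than among genes at large. DU145 over C4-2B called 2 genes higher, beside 17.3%, and 3 lower, beside 19.5%, with 36.7% in all. DTXR over TaxR called 3 higher, beside 18.8%, and 2 lower, beside 17.4%, with 36.2% in all. CTXR over CabR called 2 higher, beside 20.0%, and 1 lower, beside 17.7%, with 37.7% in all. Of all genes called in DU145 over C4-2B 47.0% were higher, and 59.8% were with libraries rescaled to the same total without mitochondrial genes, which moved the median of all genes by 0.19.

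**Figure D4:**
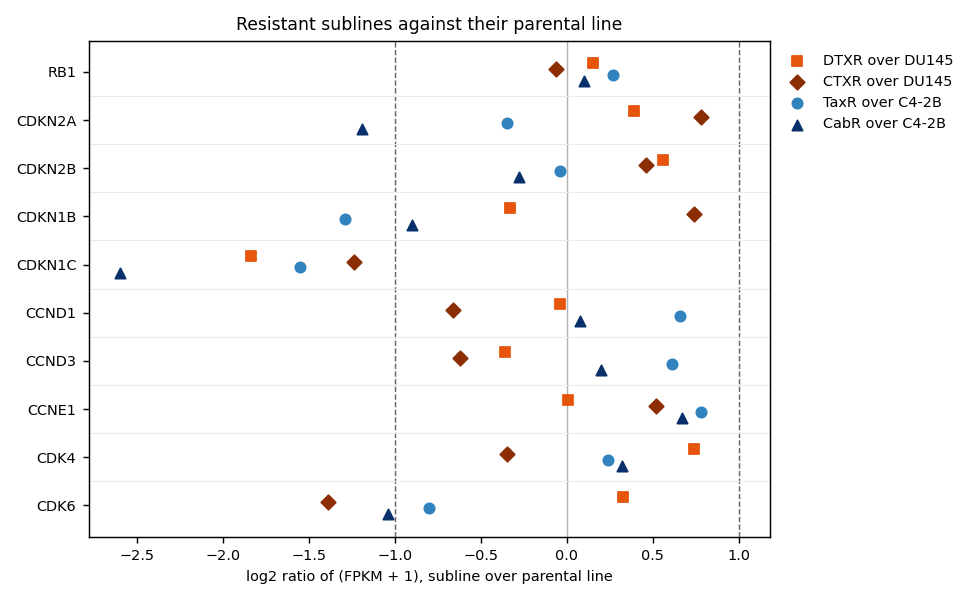
Log2 ratio of (FPKM + 1) of each subline over its parental line (x axis) for the 10 genes, with dashed lines at the size rule of 1. CDKN1C lies beyond -1 in all 4 sublines, and no gene lies beyond 1.

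Stages were tested with the DU145 and C4-2B lineages as the repeats of each selection stage. limma with stage and lineage as terms called 0 of 17436 genes at either stage (0.0%), with 772 genes at docetaxel and 835 at cabazitaxel under an unadjusted p of 0.05. CDKN1C differed by -1.69 at docetaxel (95% confidence interval -2.73 to -0.66, limma adjusted p = 0.93) and by -1.92 at cabazitaxel (-2.96 to -0.88, limma adjusted p = 0.864), and was lower in 4 of 4 sublines. CDK6 differed by -1.21 at cabazitaxel (-2.23 to -0.20, limma adjusted p = 0.864). Without CTXR the CDK6 value was -0.76 (-2.38 to 0.87). The CDKN1C value at cabazitaxel was -1.17 (-2.17 to -0.17) without CabR. The interval of CDKN1C included 0 without C4-2B, both at docetaxel (-3.41 to 0.55) and at cabazitaxel (-3.64 to 0.32). At docetaxel it also included 0 without DTXR (-2.82 to 0.41). Without the lineage term it included 0 at docetaxel (-4.18 to 0.79) and at cabazitaxel (-4.41 to 0.56). With both resistant stages joined, CDKN1C differed by -1.81 (limma adjusted p = 0.73). None of the 10 genes passed the adjusted threshold in these fits.

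E2F target genes, which act in DNA replication, nucleotide synthesis and cell cycle control, were more often lower than higher in the DU145 lineage. Of 20 measured, 12 lay below and 1 above without overlap, beside 28.6% and 27.2% of all genes, with a median log2 difference of -0.64 against -0.02 over all genes. With libraries rescaled to the same total without mitochondrial genes, 8 lay below and 2 above, and with 1 library left out 12 or 13 lay below and 1 or 2 above. Leaving out a library can only keep or raise such counts, so it could not have lowered them. The shares over all genes were not counted under these alternatives, so 28.6% and 27.2% do not serve as their comparison. The mitochondrial share differs between the lineages as given above, and its part in this result was not tested further. CDK1 had 118 FPKM in DU145, 81.2 FPKM in DTXR and 88.1 FPKM in CTXR, against 281 FPKM in C4-2B, 240 FPKM in TaxR and 382 FPKM in CabR. PCNA, the sliding clamp of DNA polymerases, had 87.2 FPKM in DU145, 94.2 FPKM in DTXR and 83.0 FPKM in CTXR, against 137 FPKM in C4-2B, 185 FPKM in TaxR and 197 FPKM in CabR.

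Along the lineages the log2 ratios of the E2F targets over the parent lay between -0.73 and 1.05. TYMS, thymidylate synthase, was the one target called, with 141 FPKM in DTXR against 67.7 FPKM in DU145, beside 5.37% of all genes called higher in that comparison. Of 10 mitotic and proliferation genes, MKI67 was called lower in CTXR, at 19.5 FPKM against 40.8 FPKM in DU145, beside 5.47% of all genes called lower. CENPF was called higher in CabR, at 27.5 FPKM against 12.9 FPKM in TaxR, beside 1.75% of all genes called higher. The median log2 ratio of the 10 in CabR over TaxR was 0.74, with single values between 0.53 and 1.04, against 0 over all genes. Over the parental C4-2B the median of the 10 was -0.42 in TaxR and 0.29 in CabR. Between the lineages, 1 of the 10 lay above and 0 below in the DU145 lineage without overlap, beside 27.2% and 28.6% of all genes. The count above depended on scaling. It was 5 with median-ratio scaling, 5 with the same total without mitochondrial genes and 2 with the same upper quartile. Without CabR it was 8. The share over all genes was not counted under these alternatives. The median log2 difference of the 10 genes was 0.35, opposite in sign to that of the E2F targets. TOP2A and MKI67 were called higher in DU145 over C4-2B, at 1.45 and 1.04, beside 17.3% of all genes called higher.

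**Figure D5:**
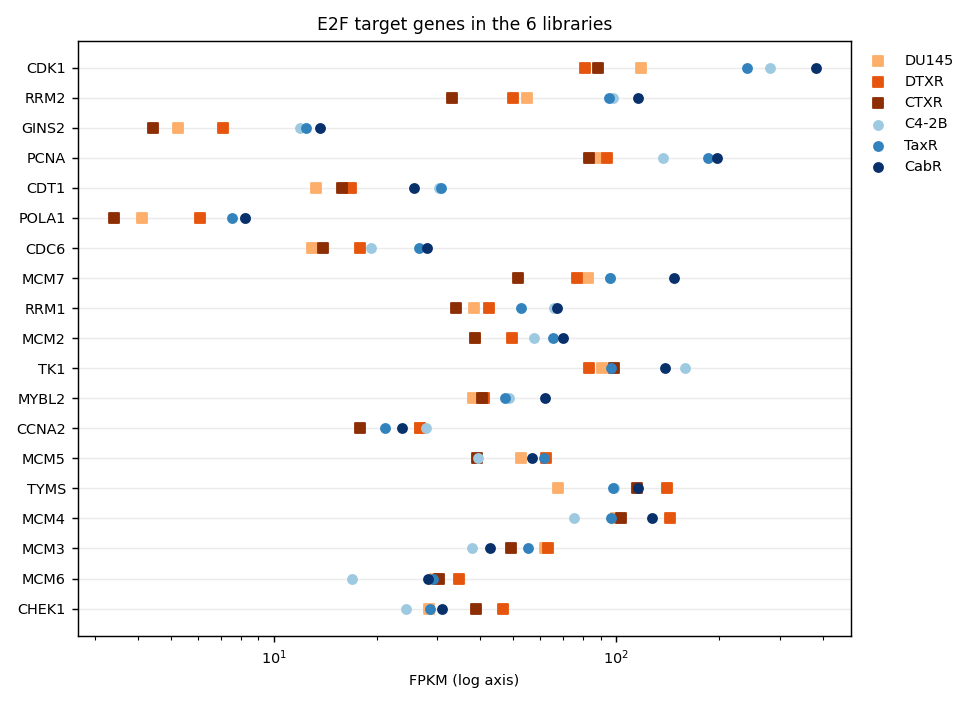
FPKM (x axis, log) of 19 of the 20 E2F target genes in the 6 libraries, with squares for the DU145 lineage and circles for the C4-2B lineage. The squares lie left of all circles for 11 of the genes shown, CDK1 and PCNA among them, and right of them for MCM6.

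Some protein-coding neighbours within 500000 bases were called along a lineage together with their gene. In TaxR over C4-2B, 1 of 9 neighbours of CDKN1C and 1 of 11 of CDKN1B were called, beside 8.16% of all measured genes. For CDKN1C, 2 of 9 were called in CabR over C4-2B, beside 8.87%, and 1 of 9 in DTXR over DU145, beside 10.5%. Neighbours called between the lineages are not listed here. CARS1, near CDKN1C, had 13.5 FPKM in TaxR and 16.5 FPKM in CabR, against 39.5 FPKM in C4-2B. FAM234B, near CDKN1B, had 6.70 FPKM in TaxR against 21.6 FPKM in C4-2B. Also near CDKN1C, SLC22A18 had 6.59 FPKM in DTXR against 17.4 FPKM in DU145, and KCNQ1 was called in the opposite direction, with 6.05 FPKM in CabR against 2.38 FPKM in C4-2B. In CTXR over DU145 none of 9 measured neighbours of CDKN1C was called, beside 12.9% of all measured genes. Other called genes also had no called neighbour. In CTXR over DTXR these were CDKN1B (11 neighbours), CDK4 (24) and CDK6 (9), beside 12.5% of all measured genes. CDKN1C in CabR over TaxR (9 neighbours) had none, beside 3.59%, nor had CDKN2A in CabR over C4-2B (3 neighbours), beside 8.87%.

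The genes with the most similar profile over the 6 libraries were taken from 13442 protein-coding genes, by the root mean square difference of centred log2(FPKM + 1). For CDKN2A these were S100A10, at 0.25, and SFN, at 0.27. For CDKN1C they were H4C8, at 0.34, and HK2, at 0.44. For CCND3 they were PPDPF, at 0.10, and SP6, at 0.11. For CDKN1B they were TLCD3B and CREBRF, at 0.11 and 0.16, and for CDKN2B XK and LHFPL6, at 0.11 and 0.13. The points share 1 library per line, and these are descriptions.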

How the data were processed

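RNA of 6 cell lines was measured, with 1 library per line, and groups were taken from the labels. The TaxR title also has the word old, with no explanation. Stranded mRNA libraries were made from total RNA, per the labels' protocols. The authors deposited FPKM for 60658 Ensembl identifiers per library, per the file headers. HISAT, StringTie, Cuffnorm and the build GRCh38 are named per the submitters' processing notes, and no source used here gives versions, annotation, strand use in counting or joint scaling. FPKM are model-based, so reads of overlapping genes were divided by software, and depth is unknown.

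Of the identifiers 56550 matched the symbol table and 57047 GENCODE release 29, which gave coordinates. FPKM were used on the log2(FPKM + 1) scale for the 17436 genes that reached 1 FPKM in at least 1 library. Genes were called between a pair of lines where the log2 ratio reached 1 in size, without a p-value. limma 3.58.1 in R 4.3.3 took all 6 libraries with terms for stage and lineage and an intensity trend (two-sided, Benjamini-Hochberg over measured genes, calls at 0.05), and was tested on simulated data. Its p-values rest on 2 lineages. The simulated noise had the same spread for every gene, so that test does not give the power of the fit in these data. Python 3.11.15, numpy 2.4.6, pandas 2.3.3 and matplotlib 3.10.9 were used.

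The genes and lists were chosen with earlier results of these data known. All 10 genes are given, with up to 4 called genes per other list and comparison. Neighbours within 500000 bases are given where they were called along a lineage in the same comparison as their gene. The 2 most similar profiles are given for genes ranging over at least 2 on the log2 scale. Single values of further genes (RBL2, BMI1, SKP2, CDK1, PCNA, MTAP, KLHL9, FOCAD, TSPAN31, CCND2 and CCNE2 among them) were chosen after their values were seen. RBL2 and CDK1 among them were called lower in DU145 over C4-2B, at -1.16 and -1.25. Some listed genes are not reported by name here. Alternatives were other pseudocounts, filters, rescalings, fits, subtraction of the DU145-like share from TaxR and leaving out each library.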

Additional observations from a re-analysis of the deposited data

Results flagged for a closer look

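For 4 of the 10 genes both DU145 sublines lay on one side of DU145 and both C4-2B sublines on the opposite side of C4-2B. The mean log2 ratio of DTXR and CTXR over DU145, minus that of TaxR and CabR over C4-2B, was 1.36 for CDKN2A, 0.67 for CDKN2B, -0.72 for CCND1 and -0.90 for CCND3. The difference was not tested, since the sublines of a lineage share 1 parental library. The same pattern, at any size, was shown by 20.9% of all measured genes. For CDKN2A the TaxR value depends on how the DU145-like transcripts in that library are treated. With a share of 1.38% subtracted its log2 ratio over C4-2B is -0.86, against -0.35 as deposited. A fall is built into this subtraction for a gene so high in DU145. Single markers put the share between -0.0435% and 5.26%, so the size of the fall is uncertain. The source of these transcripts was not tested.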

How the results depend on the processing

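The labels give no replicate numbers, and limma pairs lines through the lineage term, which stands as the block. Of 720 log2 ratios of the 10 genes recomputed under alternatives, 716 kept their side of the size rule and no called value changed sign. The filters left every ratio as it was, and the subtraction from TaxR could alter only comparisons with TaxR. Ratios that a setting could not alter are among the 716. Of the uncalled values, CCNE1 in DTXR over DU145 (0.01) and CDK6 in CTXR over CabR (-0.04) changed sign in 5 rescalings in all, to at most 0.05 in size. The other 4 were CDK6 in TaxR over C4-2B, at -1.09 with a pseudocount of 0.1, CDK6 in CabR over C4-2B, at -0.98 and -0.99 under 2 rescalings, and CDKN1B in CTXR over DTXR, at 0.98 with the same total without mitochondrial genes. The count of genes whose lineages do not overlap was 4 under every rescaling tried, and 4 to 6 with 1 library left out, the 6 being without CTXR. The filters could not change this count, and leaving out a library could not lower it. The share of all measured genes without overlap was not counted under these alternatives. The limma counts stayed at 0 with 1 library left out. With a pseudocount of 0.1 limma called 1 gene at cabazitaxel. With no filter on low values it called 941 genes at docetaxel and 1148 at cabazitaxel. There CDKN1C passed at both stages (limma adjusted p = 0.00107 and 5.71e-05) and CDK6 at cabazitaxel (limma adjusted p = 0.0439). In that fit 33230 of 60658 genes had a residual SD of 0, and the cause of the calls was not tested. Over 14 other settings the limma adjusted p of CDKN1C was 0.803 to 1.0 at docetaxel and 0.599 to 1.0 at cabazitaxel. Without the lineage term limma called 0 genes, with 63 at docetaxel and 76 at cabazitaxel under an unadjusted p of 0.05, against 772 and 835 with it. Depth is unknown, and levels near or under 1 FPKM, such as CDKN2B in the C4-2B lineage, are the least certain.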
